A study of Zea mays with 8 samples.

Results

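A small set of maize genes was almost silent in normal endosperm and measurable in every library labelled ded1-ref. The set was selected from the expression values themselves: a gene had to lie under 0.5 TPM in each of 4 normal libraries and reach at least 1 TPM in each of 4 ded1-ref libraries. TPM is a share of a library's transcripts corrected for length, so levels can be compared between genes. Values for a group are listed below in the order of its replicates 1 to 4. Of 39423 genes 17 met these limits, and 15 are described here, because a2 and bronze-2 of the anthocyanin pathway were left out by name. The flavonoid gene f3h, also left out by name, did not meet the limits. As the limits fixed the difference between the groups, the levels of the 15 genes are given as a description and without a test.

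RNA came from endosperm of the W22 background collected 12 days after pollination, the nutritive tissue of the kernel that fills with starch and storage protein. The control group held 4 pools from kernels of genotype normal, and the other group 4 pools from sibling kernels of genotype ded1-ref. The paired pools carry the same family number in their titles and are called replicates 1 to 4. The labels give the gene as GRMZM2G121570 (ded1), known to encode a MYB transcription factor of the endosperm, and do not describe the lesion.

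As background, transcription factors of the MYB family bind DNA and raise or lower the transcription of the genes beside them. In cereal endosperm they take part in tissue patterning, grain filling and pigment synthesis. In pooled tissue, fewer cells of a type and less RNA per cell cannot be told apart.

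The libraries held between 10536845 and 20725033 recovered reads. ded1 itself stood at 37.0 to 42.0 TPM in the normal libraries and at 67.3 to 101 TPM in those labelled ded1-ref, so its transcript does not check the labels, and every direction refers to libraries as labelled. Over all tested genes the median log2 change of TPM was -0.68. Division by median-of-ratios factors, called the scaled values, brought that median to -0.0031. The 16 matched genes of the starchy endosperm list summed to between 88890 and 112400 TPM per library. The largest parts were fl2, with a mean of 37330 TPM in normal and 55740 TPM in ded1-ref, and gz16, with 29450 and 17630 TPM. Others of the list were low, such as wx1 at a mean of 3.53 and 2.14 TPM. Of 21 embryo symbols asked for, 13 genes matched, and they summed to 297.7 to 528 TPM in normal and to 243 to 460.3 TPM in ded1-ref libraries, most of it ole1, which aleurone cells also express. wox2A of this list was present in every library, at 16.1 to 19.7 TPM in normal and 10.55 to 19.6 TPM in ded1-ref. glb1 stood at 0.498 to 1.34 and 0.175 to 2.49 TPM. wus1, wox5B and nam1, which act in the embryo, were at 0 TPM in every library. lec1, kn1 and glb2 were at 0 TPM in every normal library and at most at 0.125 TPM in a ded1-ref library. MGL3 stood at 3.98 to 11.3 and 7.16 to 35.1 TPM, and dhn1 at 0 to 0.491 and 0.842 to 5.67 TPM. The 12 basal transfer layer genes, of the cells that take up nutrients from the mother, summed to 498 to 1232 TPM in normal and 154 to 297 TPM in ded1-ref libraries. The sums were 85.2 to 105 and 63.0 to 123 TPM for 11 aleurone genes, 11.5 to 55.6 and 23.4 to 49.3 TPM for 4 genes of the embryo-surrounding region, and 155 to 185 and 56.9 to 93.7 TPM for 7 green tissue genes, of which rca1 was at 0 in every library. Most of the green tissue sum was ppdk1, at 149 to 176 TPM in normal and 48.45 to 81.0 TPM in ded1-ref. psaH went the other way, from a mean of 0.309 to 6.63 TPM. The 6 matched maternal tissue genes summed to 0.868 to 6.90 TPM in normal and 0.566 to 3.06 TPM in ded1-ref libraries. The part of other kernel tissues in the levels that follow was not tested.

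**Figure D1:**
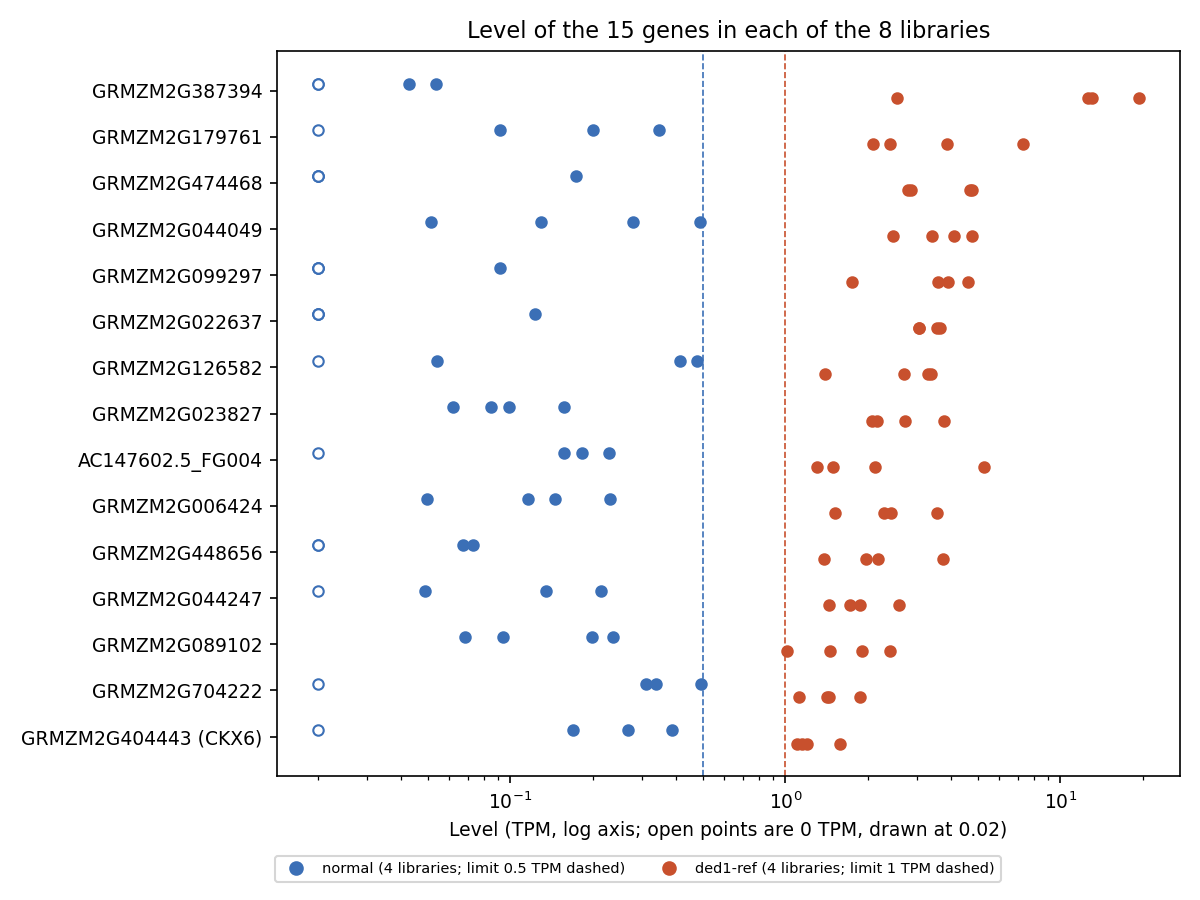
Level of each of the 15 genes in TPM on a log axis, with 1 point per library (4 normal in blue, 4 ded1-ref in red) and the limits of the rule dashed. Open points are libraries at 0 TPM and can lie on top of each other. All normal points lie under 0.5 TPM and all ded1-ref points at or above 1 TPM, as the rule requires.

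The 15 genes were low in ded1-ref endosperm too. Their mean over the ded1-ref libraries ran from 1.26 to 11.8 TPM with a median of 2.67 TPM, and 14 of the 15 had a mean under 4 TPM. Their mean over the normal libraries ran from 0.0229 to 0.285 TPM. Their sums were 2.36, 2.00, 1.36 and 1.91 TPM in the normal libraries against 58.6, 56.1, 31.7 and 49.4 TPM in ded1-ref. Thus ded1-ref replicate 3 had the lowest sum of its group, while the rule itself sets every ded1-ref sum above every normal sum.

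None of the 15 was fully off in normal endosperm. Of the 15, 11 were at 0 TPM in at least 1 normal library, 3 were at 0 in 3 normal libraries, and 0 were at 0 in all 4. The reads behind these values were few: between 1 and 19 per gene over the 4 normal libraries, against 44 to 1379 over the 4 ded1-ref libraries. A single ded1-ref library held as few as 8 reads of a gene. Folds against such counts are imprecise. They are given below as ratios of the share of recovered reads with an exact 95% interval. The interval covers counting error only, not the spread between libraries. The rule chose the genes on these same values, which favours large ratios, and the intervals make no allowance for that choice.

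GRMZM2G387394 had the highest level of the set. It stood at 0, 0, 0.0428 and 0.0538 TPM in normal against 19.3, 13.0, 2.56 and 12.6 TPM in ded1-ref. Its lowest ded1-ref library, replicate 3, was 47.5 times its highest normal library, the widest gap of the 15 genes. The normal libraries together held 2 of its reads and the ded1-ref libraries 1379, a ratio of 547 (95% interval 151 to 4520). In the authors' deposited table its log2 fold of 6.75 ranks 1 among the 38727 transcript rows that have a fold. This is 108 on a linear scale, smaller than the ratio of reads and below its interval, and the cause was not tested.

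A group of 4 genes was at or near a single read or pair of reads in normal endosperm. GRMZM2G474468 was at 0.173, 0, 0 and 0 TPM in normal against 4.69, 4.77, 2.78 and 2.87 TPM in ded1-ref. GRMZM2G099297 was at 0.0917, 0, 0 and 0 TPM and at 4.60, 3.58, 3.91 and 1.75 TPM. GRMZM2G022637 was at 0, 0, 0.123 and 0 TPM and at 3.64, 3.07, 3.05 and 3.56 TPM. In each of these the normal value above 0 comes from 1 library, and the ded1-ref libraries lie close together for GRMZM2G022637 and spread more for GRMZM2G099297, where replicate 4 is lowest. GRMZM2G448656 was at 0.0729, 0, 0.0671 and 0 TPM in normal and at 2.17, 1.96, 1.38 and 3.75 TPM in ded1-ref libraries. The ratios of reads were 90.4 (15.9 to 3602) for GRMZM2G474468, 155 (42.5 to 1282) for GRMZM2G099297, 101 (17.8 to 4009) for GRMZM2G022637 and 64.2 (17.5 to 535) for GRMZM2G448656. The intervals overlap widely, so the order of these genes by fold cannot be read.

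Another group had a low level in most normal libraries. GRMZM2G023827 was detected in all 4, at 0.0851, 0.0620, 0.157 and 0.0986 TPM, and stood at 2.73, 3.76, 2.06 and 2.15 TPM in the ded1-ref group. GRMZM2G006424 was at 0.0499, 0.145, 0.230 and 0.116 TPM and at 2.42, 3.54, 1.51 and 2.28 TPM. GRMZM2G044049 was at 0.280, 0.489, 0.0515 and 0.130 TPM and at 3.40, 4.77, 4.09 and 2.46 TPM. For all 3 the groups are apart by several fold, and replicate 2 is the highest ded1-ref library. The ratios of reads were 28.5 (14.8 to 62.8) for GRMZM2G023827, 19.99 (10.7 to 42.2) for GRMZM2G006424 and 18.8 (11.1 to 34.8) for GRMZM2G044049. GRMZM2G089102 was at 0.0681, 0.198, 0.0941 and 0.237 TPM in normal libraries and at 1.01, 2.39, 1.45 and 1.89 TPM in ded1-ref libraries, so replicate 1 only just met the limit. GRMZM2G126582 was at 0.412, 0, 0.0543 and 0.478 TPM and at 2.71, 3.30, 1.40 and 3.37 TPM, with normal replicates 1 and 4 close under the limit. GRMZM2G044247 was at 0.0490, 0.214, 0.135 and 0 TPM and at 1.71, 2.59, 1.44 and 1.87 TPM.

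For 2 genes 1 ded1-ref library stood well above the rest of its group. GRMZM2G179761 was at 0.200, 0, 0.0920 and 0.347 TPM in normal libraries and at 2.39, 3.87, 2.09 and 7.30 TPM in the ded1-ref group. AC147602.5_FG004 was at 0.157, 0.229, 0 and 0.182 TPM and at 5.29, 2.11, 1.49 and 1.31 TPM. Replicate 4 is thus highest for the former and lowest for the latter. The coefficients of variation over the ded1-ref libraries were 61.1% and 72.9%, the largest of the 15 genes.

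CKX6 (GRMZM2G404443) was the single gene of the 15 with an informative symbol, and the lowest of them in ded1-ref endosperm. It belongs to the cytokinin dehydrogenases, enzymes that break down cytokinin, a hormone that promotes cell division in young endosperm. CKX6 stood at 0.386, 0.169, 0 and 0.268 TPM in normal against 1.20, 1.58, 1.098 and 1.15 TPM in ded1-ref. The ded1-ref libraries agree closely and lie just above the limit, and the ratio of reads was 6.93 (4.30 to 11.8), from 19 normal and 166 ded1-ref reads. The ratio was smaller still for GRMZM2G704222, at 5.82 (2.47 to 16.7) from 6 and 44 reads, and this gene stood at 0.338, 0.492, 0.311 and 0 TPM and at 1.42, 1.87, 1.44 and 1.12 TPM.

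Other genes of the cytokinin dehydrogenase family were either more abundant than CKX6 in normal endosperm or low in both groups. By name 9 genes matched, and 3 others besides CKX6 passed the filter of at least 1 TPM in at least 4 libraries. CKX4 (GRMZM5G817173), the most abundant, stood at 6.34, 6.65, 4.40 and 6.01 TPM in normal and at 3.66, 6.66, 4.44 and 6.21 TPM in ded1-ref libraries (limma adjusted p = 0.511, scaled 0.0616). ckx1 (GRMZM2G146644) stood at 3.98, 3.33, 4.45 and 3.48 TPM and at 2.47, 3.34, 1.49 and 2.04 TPM. It was lower on the TPM scale (log2 change -0.55, limma adjusted p = 0.0393), while the scaled change was 0.06 (adjusted p = 0.839). CKX12 had a limma adjusted p of 0.0704 on TPM and 0.868 after scaling. Of the rest, CKX4b, CKX5 and CKX10 were under 0.8 TPM in every library, and the 2 genes named CKX8 were at 0 in all. Whether CKX6 differs from its family was not tested.

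**Figure D2:**
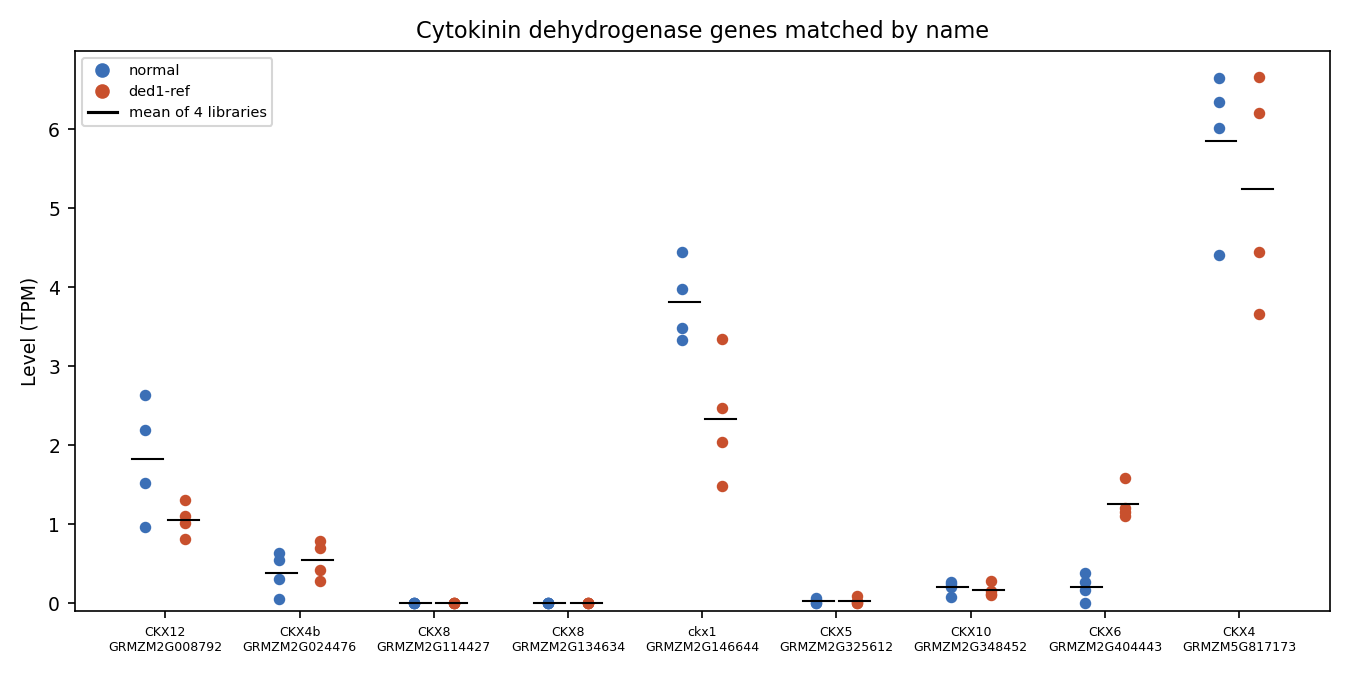
Level in TPM of the 9 genes matched by name as cytokinin dehydrogenases, with 1 point per library and a line at the mean of 4 libraries. CKX6 is the gene with all ded1-ref points above all normal points, as the rule that chose it requires; CKX4 and ckx1 are more abundant and their groups overlap.

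In the wider list of hormone genes by symbol pattern, which holds CKX6, 43 of the other 130 genes were tested. A gene outside the set is said to have risen or fallen where limma passed an adjusted p of 0.05 on the TPM and on the scaled values. Of all 13671 tested genes 3.53% rose and 10.6% fell by this rule; on TPM alone 3.53% were higher and 69.8% lower, and on scaled values 12.3% and 10.6%. In the hormone list 3 rose and 11 fell, with a median log2 change of -0.60 on the TPM scale and 0.05 on the scaled values. Those that rose were the auxin response factor genes ARF2 and ARF17 and the auxin synthesis gene Yucca6. ARF2 went from 8.07 ± 0.580 to 13.5 ± 4.18 TPM, ARF17 from 5.02 ± 0.723 to 7.83 ± 2.03 TPM and Yucca6 from 27.5 ± 5.16 to 42.9 ± 14.9 TPM (SD, n = 4). Yucca6 did not pass on the TPM scale without the replicate block (limma adjusted p = 0.0705). The 3 with the largest fall were the auxin synthesis gene yuc, from 245 ± 57.1 to 0.484 ± 0.292 TPM, EREB203, from 3.67 ± 0.910 TPM to 0 in every ded1-ref library, and ARF23, from 11.1 ± 1.71 to 1.87 ± 0.724 TPM.

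All 15 genes passed the limma test in both forms, as a rule on the same values had to make them, and nothing is read from that count beside the 3.53% of all tested genes called higher and 69.8% called lower on TPM. Every ded1-ref library lay above every normal library in 2.14% of the tested genes.

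**Figure D3:**
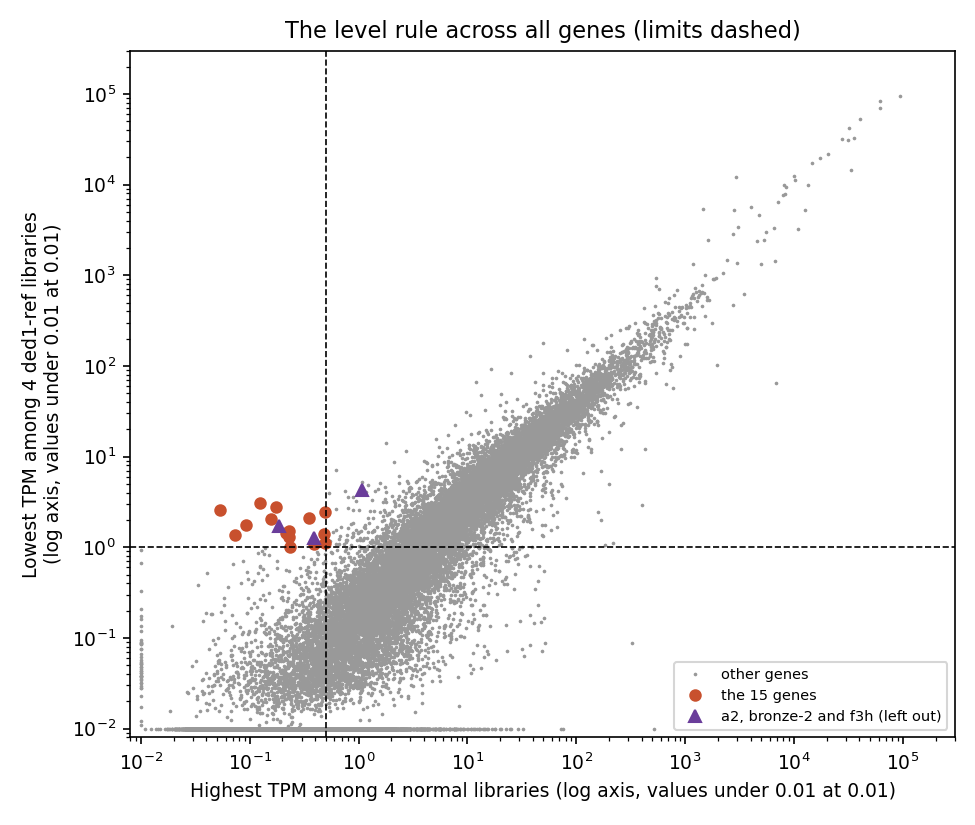
Highest TPM among the 4 normal libraries against lowest TPM among the 4 ded1-ref libraries, 1 point per gene on log axes, with the limits dashed. The 15 genes (red) and a2 and bronze-2 (purple) fill the upper left corner that the rule cuts out. f3h falls to the right of the normal limit. As a highest value is set against a lowest, a gene equal in both groups also tends to lie below the diagonal.

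The limits cut through a thin edge of a continuous distribution. Of 20401 genes that met the limit for normal libraries in all 4, 20240 reached 1 TPM in 0 ded1-ref libraries, 91 in 1, 28 in 2, 25 in 3 and 17 in 4. The highest normal values just inside the limit were 0.492 TPM for GRMZM2G704222, 0.489 for GRMZM2G044049, 0.478 for GRMZM2G126582, 0.386 for CKX6 and 0.347 for GRMZM2G179761. Just outside it were GRMZM2G181266 at 0.515, Aox (GRMZM2G125669) at 0.532, GRMZM2G152179 at 0.536, GRMZM2G153961 at 0.543 and GRMZM2G122706 at 0.579 TPM. Just inside the ded1-ref limit, the lowest libraries were at 1.01 TPM for GRMZM2G089102, 1.098 for CKX6, 1.12 for GRMZM2G704222, 1.31 for AC147602.5_FG004 and 1.38 for GRMZM2G448656. Just outside it were GRMZM2G096952 at 0.994, EF517601.1_FG016 at 0.931, GRMZM2G048836 at 0.922, GRMZM2G097683 at 0.885 and LTP3 (GRMZM2G126397) at 0.859 TPM.

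Several genes with known roles missed the limits by 1 library. Aox, which encodes the alternative oxidase of mitochondria, stood at 0.411, 0.532, 0.336 and 0.370 TPM in normal against 4.40, 3.96, 4.33 and 3.94 TPM in ded1-ref. SGR2, a stay-green gene of chlorophyll breakdown, stood at 0.0466, 0.136, 0.0429 and 0 TPM and at 2.02, 2.17, 1.55 and 0.851 TPM. LTP3, named as a lipid transfer protein gene, stood at 0, 0.120, 0.0758 and 0 TPM and at 2.77, 2.86, 0.859 and 2.53 TPM. Their groups do not overlap, and the miss comes from normal replicate 2 for Aox, ded1-ref replicate 4 for SGR2 and ded1-ref replicate 3 for LTP3. dhn1, a dehydrin gene of drying tissue, stood at 0.444, 0.388, 0.491 and 0 TPM and at 2.79, 1.47, 0.842 and 5.67 TPM, and psaH, a photosystem I subunit gene, missed the normal limit in replicate 1 at 0.794 TPM. Of the 25 genes that fell short in 1 ded1-ref library, 18 did so in replicate 3. That library also had the fewest genes at 1 TPM or more, 11097 against 11744 to 13100 in the other ded1-ref libraries.

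**Figure D4:**
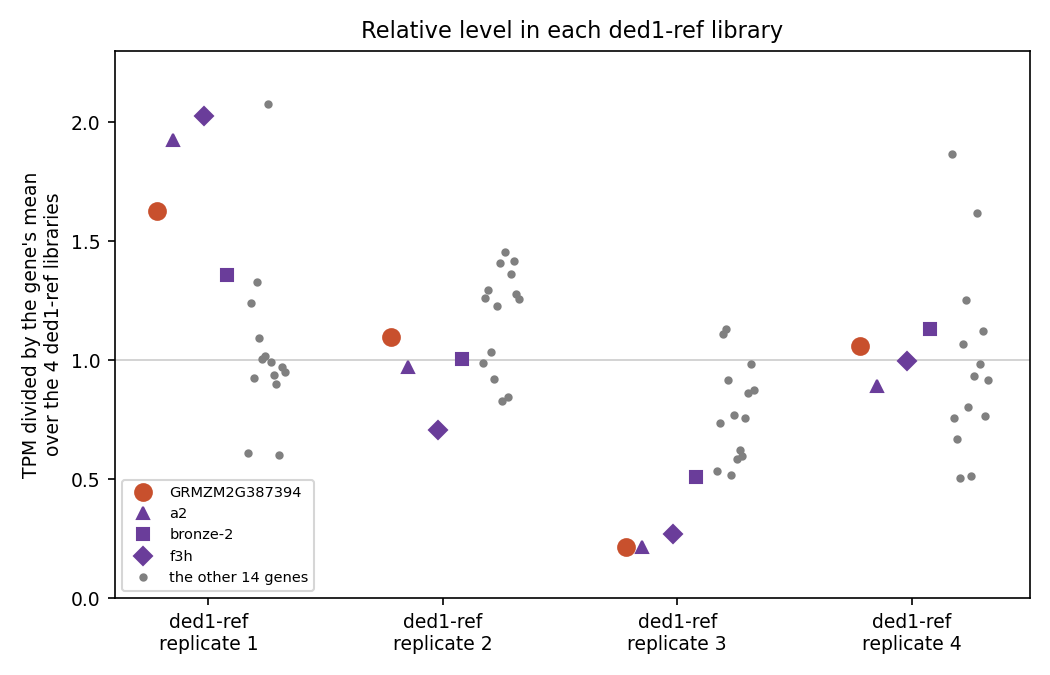
TPM in each of the 4 ded1-ref libraries divided by the gene's mean over them. GRMZM2G387394 (red circles) and a2 and f3h (purple) sit near 0.2 in replicate 3 and above 1.6 in replicate 1, while the other 14 genes (grey) lie above 0.5 in every library.

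The ded1-ref libraries differed in how strongly they expressed the set. The lowest ded1-ref library was replicate 3 for 10 of the 15 genes, replicate 4 for 4 and replicate 1 for 1, and the highest was replicate 2 for 8. Among 7464 other genes in the same range of mean level, replicate 3 was lowest for 48.8% and replicate 2 highest for 57.4%. Whether the set differs from those genes in this was not tested. On the scaled values replicate 3 was lowest for 4 of the 15 and replicate 4 for 8. The highest ded1-ref library exceeded the lowest by a median of 2.34 times in the set and 2.13 times in those other genes. It did so by 7.54 times for GRMZM2G387394 and by 1.19 times for GRMZM2G022637. The next widest ratios were 4.05 for AC147602.5_FG004, 3.50 for GRMZM2G179761, 2.71 for GRMZM2G448656 and 2.63 for GRMZM2G099297. The next narrowest were 1.44 for CKX6, 1.66 for GRMZM2G704222, 1.71 for GRMZM2G474468 and 1.80 for GRMZM2G044247.

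GRMZM2G387394 followed a2, the anthocyanin pathway gene left out by name, across the ded1-ref libraries. This gene was singled out after its values were seen. a2 stood at 15.6, 7.84, 1.73 and 7.21 TPM in the ded1-ref group, and the ratio of GRMZM2G387394 to a2 was 1.24, 1.66, 1.48 and 1.74. The ratio to f3h was 0.601, 1.16, 0.599 and 0.794, and the ratio to bronze-2 was 5.65, 5.14, 2.00 and 4.43. By the root mean square difference of log2 profiles over the 4 libraries, a2 was at rank 2 (0.19), f3h at rank 19 (0.39) and bronze-2 at rank 119 (0.59) among 10161 genes at 1 TPM or more in each. Rank 1 was AC208916.3_FG003 (0.16), which stood at 0.105 to 2.16 TPM in normal libraries. Besides a2, the 15 nearest profiles belonged to 14 genes that all had a normal mean of at least 1 TPM, and 8 of the 14 had a lower mean in ded1-ref than in normal libraries. The likeness is thus shared with genes that did not meet the limits. The nearest of the other 14 genes of the set, GRMZM2G126582, was at rank 333 (0.69). The points share their libraries, and 4 libraries give a weak measure of likeness. The low level in replicate 3 held for GRMZM2G387394 on the scaled values (28.3, 13.35, 4.26 and 16.1).

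Of the flavonoid and anthocyanin list, 14 genes remained besides those left out, and 3 of them were tested. Their median log2 change was -0.28 on TPM and 0.56 on scaled values, beside -0.68 and -0.0031 over all tested genes, and 1 of the 3 rose and 0 fell. The summed levels of all 17 matched genes, with those left out by name included, overlapped between the groups, at 268 to 333 TPM in normal and 240.1 to 339 TPM in ded1-ref libraries. c1 (GRMZM2G005066), a MYB regulator of pigment genes in the aleurone, rose. It stood at 2.53, 1.97, 5.07 and 0.523 TPM in normal and at 6.02, 6.70, 1.89 and 9.14 TPM in ded1-ref libraries (log2 change 1.01, limma adjusted p = 0.0471; scaled 1.60, adjusted p = 0.0259). It was higher in 3 of 4 pairs, since replicate 3 went the other way. A1, a pigment synthesis gene too low for the test, was at 0 TPM in every normal library and at 0.677, 0.701, 0.0461 and 0.526 TPM in the ded1-ref group. The pigment gene bronze1 was at most at 0.0459 TPM in a normal and 0.357 TPM in a ded1-ref library, and r1 at most at 0.0596 TPM in any.

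None of the 15 genes fell into the other 7 lists. The lists were matched by symbol, and only 1 of the 15 genes has an informative symbol, so the rest could not match any. Of the genes tested in these 7 lists, 1 of 4 photosystem genes rose and 2 fell. Of 2 benzoxazinoid genes 1 rose, and 2 of 18 heat shock genes rose and 6 fell. In the late embryo list 2 of 17 rose and 2 fell, and in the defence list 2 of 26 rose and 5 fell. Among transcription factors 4 of 85 rose and 11 fell, and among transport genes 1 of 11 rose and 4 fell. These stand beside 3.53% and 10.6% of all tested genes. The gene that rose in the photosystem list was psaH, from 0.309 ± 0.356 to 6.63 ± 2.95 TPM, and in the benzoxazinoid list BX14, of a pathway of defence compounds, from 0.755 ± 0.211 to 6.13 ± 0.643 TPM (SD, n = 4). psaH missed the normal limit in 1 library and BX14 in all 4.

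All 15 genes have a single transcript row, so that no choice among isoforms enters their levels. A single row is the rule among 67.9% of all genes and 60.9% of the 7479 other genes in the same range of mean level. For 8 of the 15 an entry in the RefSeq gene table (assembly NAM-5.0) gives a place in the gene order, and all 8 are protein-coding there. No 2 of these 8 were neighbours. Of the 8, 3 lie on the chromosome of ded1. The share of all genes on it was not counted, and linkage to ded1 was not tested. Of the 16 nearest genes with a measured ID on either side, 0 belonged to the set and 7 were tested. On the TPM scale 0 of the 7 were higher and 5 lower, beside 3.53% and 69.8% of all tested genes. In the scaled test 1 was higher and 1 lower, beside 12.3% and 10.6%. The gene directly beside GRMZM2G387394, GRMZM2G006366, was at 0 TPM in all libraries. On the other side, with 5 entries between, GRMZM2G036169 went from 44.6 ± 4.69 to 24.1 ± 6.45 TPM (scaled log2 change -0.08, limma adjusted p = 0.752). On 1 side of GRMZM2G006424, with 8 entries between, GRMZM2G106141 fell from 7.59 ± 0.521 to 0.554 ± 0.289 TPM (limma adjusted p = 1.5e-06, scaled 1.1e-04). Directly beside GRMZM2G006424 on the other side, GRMZM2G171967 went from 25.0 ± 3.17 to 19.6 ± 3.25 TPM. Its log2 change was -0.34 on TPM (limma adjusted p = 0.0589) and 0.46 on scaled values (limma adjusted p = 0.0425). The nearest measured genes to CKX6 were GRMZM2G380668, directly beside it, from 67.3 ± 13.8 to 30.6 ± 7.30 TPM, and BTF3, with 2 entries between, from 3.01 ± 0.737 to 1.73 ± 0.333 TPM, and neither passed the scaled test (limma adjusted p = 0.224 and 0.888).

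**Figure D5:**
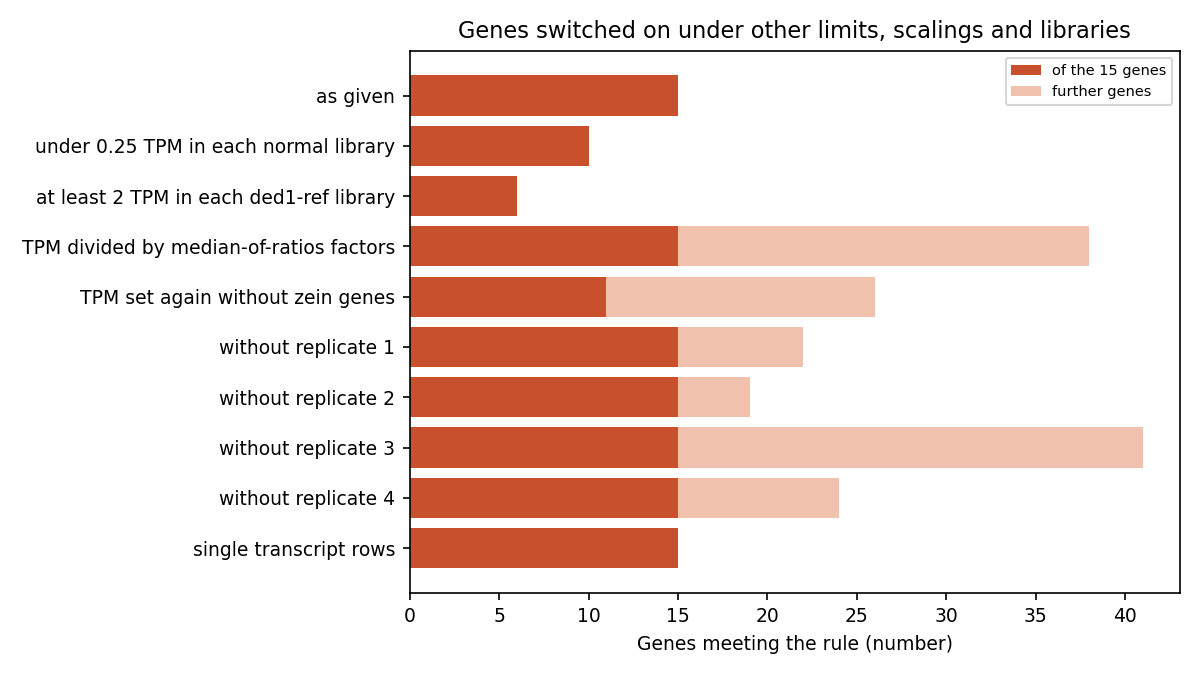
Number of genes that met the rule as given and under each alternative, with the part that belongs to the 15 genes in dark red and further genes in light red. Scaling brought the number to 38 and leaving out replicate 3 to 41, and neither change can remove any of the 15.

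The number of genes that met the limits changed with the scale. With scaled values 23 further genes met the limits, and without replicate 3 there were 26 further genes. The 15 stay in both cases by construction, since scaling lowered every normal and raised every ded1-ref value and leaving out a library removes a condition. Of the 23, 9 were among the 26 (39.1% of the former and 34.6% of the latter). Genes with the opposite pattern, under 0.5 TPM in each ded1-ref and at least 1 TPM in each normal library, numbered 139 on TPM and 70 on scaled values. The excess of genes switched off over genes switched on was thus smaller, 70 against 38, once the shift of the median gene was removed. The 38 leave out a2 and bronze-2, which also met the limits on scaled values. With TPM set again without the 26 zein genes matched by name, the numbers were 142 off against 26 on, so the size of the excess depends on the scale. Any zein gene without such a name stayed in.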

How the data were processed

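RNA was sequenced from 8 endosperm libraries, 4 per genotype. The submitters' processing notes list GSNAP, Trimmomatic 0.22 and cutadapt 1.1; no source used here names the counter, the build or the treatment of reads from near-identical copies. Per the labels, libraries were not strand-specific, so reads of overlapping or antisense genes cannot be told apart. The authors deposited TPM for 63293 transcript rows per library. They also deposited a table with, per the file headers, a mean normalized signal, a fold, the fold's log2 standard error, a score from their test, and p-values before and after adjustment.

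Rows were summed to genes. Reads were recovered by solving the deposited mean signal and the TPM together, and 100% of 236228 values above 0 lay within 0.05 of a whole read. Read intervals were exact (Clopper-Pearson on the split of reads) and, like all counts here, cover counting error only. They make no allowance for the choice of the genes on the same values.

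The filter was 1 TPM or more in 4 or more libraries, and the genes left were fitted with limma 3.58.1 (R 4.3.3) on log2(TPM + 1), with Benjamini-Hochberg adjustment and a block for the replicate number; this scale understates changes of low genes. Within replicate numbers 1 to 4, deviations from the group means had correlations of 0.115, 0.333, 0.309 and 0.149, and the design text states the pairing. The fit was repeated after scaling by median-of-ratios factors. The fit was tested on simulated data. Names came from the RefSeq table: 18771 of 39423 IDs and 8 of the 15 genes matched, 1 with an informative symbol. All 15 genes are named, with the 5 just inside and outside each limit and the 5 with the widest and narrowest spread. The genes and lists were chosen with earlier results of these data known. Planned promoter motifs and sequences were not analysed here.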

Additional observations from a re-analysis of the deposited data

Results flagged for a closer look

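In 3 of the 30 gene and group combinations examined, a single library stood apart from the rest of its group of 4. In each the other 3 normal libraries were at 0 TPM, where any value above 0 stands apart, so the usual chance rate of about 1 in 20 does not apply. They are GRMZM2G474468 at 0.173 TPM in normal replicate 1, which is 1 read, GRMZM2G099297 at 0.0917 TPM in normal replicate 1, which is 2 reads, and GRMZM2G022637 at 0.123 TPM in normal replicate 3, which is 1 read.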

How the results depend on the processing

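The 15 genes became 10 with a limit of 0.25 TPM in normal libraries and 6 with a limit of 2 TPM in ded1-ref libraries. They became 38 on scaled values, 26 with TPM set again without the zein genes matched by name (11 of the 15 stayed) and 15 on single transcript rows. Leaving out 1 replicate number gave 19 to 41 genes. Against 482 genes called higher and 9539 lower on TPM, the scaled test called 1687 and 1444; without the replicate block it was 402 and 8842. Leaving out a replicate gave 359 to 539 higher and 7963 to 9240 lower. The log2 differences of the 15 genes ran from 0.83 to 6.30 over the settings tried; their sign is fixed by the rule. Depth limits the normal levels, since 1 to 19 reads stand behind each.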

Other observations

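Of 11666 genes at 0 TPM in all 4 normal libraries, 46 were above 0 in all 4 ded1-ref libraries and 0 reached 1 TPM in each. The nearest was EF517601.1_FG016, with 22, 18, 5 and 14 reads in ded1-ref replicates 1 to 4, or 2.79, 2.79, 0.931 and 2.28 TPM. Its share of recovered reads was 15.6 times that of 3 reads over the 4 normal libraries, a count taken as the limit for an observed 0. The ded1-ref reads were taken as exact and the gene was picked for its high level, so 15.6 is not a lower bound. GRMZM2G066734 followed, at 0.887, 1.02, 2.14 and 0.669 TPM, and was highest in replicate 3. That library was the lowest of its group for 10 of the 15 genes on TPM and for 4 on scaled values. It was also the lowest on TPM for 48.8% of the 7464 other genes in the same range of mean level as the 15.

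GRMZM2G336437, which missed the normal limit, was higher than all but 1 of the 15 genes in ded1-ref endosperm. It stood at 0.529, 0.617, 0.341 and 0.490 TPM in normal against 11.1, 8.19, 10.5 and 7.12 TPM in ded1-ref. It met the limits on the scaled values.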
